A study of Mus musculus with 7 samples.

Results

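The collagen genes of the mouse were taken as all gene symbols made of Col, a type number, the letter a and a chain number, measured on arrays in regenerating and intact digits. The symbols came from the platform annotation of probe sets with exactly 1 gene, and the brightest probe set over all arrays stood for a gene. This gave 44 members out of 22180 genes measured, and the same 44 symbols are in the RefSeq table of the mouse genome. RNA from 4 uninjured digits (n = 4) and from 3 blastemas (n = 3), all of C57Bl/6 mice, was compared. A blastema is the mass of cells that forms at an amputated digit tip and rebuilds it, and these were collected 2 weeks after amputation. No mutant allele, transgene or agent is named in the labels, which call the samples of a group biological replicates and give neither the age or number of animals per sample nor a batch. The study's title puts Schwann cell precursors from nerves at the centre of digit tip regeneration, and the comparison sets regenerating digit tissue against uninjured digit. The labels do not say whether a whole digit or only its tip was taken from uninjured mice, so the tissue regions compared may differ.

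Collagens are proteins of the extracellular matrix in which chains wind around each other into a helix of repeated glycine-led triplets. Fibrillar collagens pack into the cables of bone, skin and tendon. FACITs, fibril-associated collagens with interrupted helices, sit on the surface of those cables. Network collagens form sheets such as the basement membrane, beaded filament collagen (type VI) forms fine threads around cells, and transmembrane collagens are anchored in the cell membrane. Anchoring fibrils (type VII) hold the epidermis to the dermis, and multiplexins (types XV and XVIII) lie in basement membrane zones. The members comprised 11 fibrillar, 9 FACIT, 9 network, 4 transmembrane and 6 beaded filament genes, 1 anchoring fibril gene, 2 multiplexins and 2 others, Col26a1 and Col28a1.

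Levels were log2 values per probe set, with array medians of 5.53 to 5.58, and arrays were normalized to each other, so a global difference in RNA content would not show. The precision is limited by the 7 arrays. Across genes, the levels of any pair of uninjured arrays correlated at r = 0.986 to 0.991, of any pair of blastema arrays at 0.988 to 0.992, and of arrays from different groups at 0.964 to 0.979. As no detection calls came with the values, a level of 5.52, the 95th percentile of 1105 olfactory receptor genes, served as a proxy for background. Of the collagen genes 36 had a mean above it in both groups and 2 in 1 group, and 6 lay below it in both. Both samples held epidermis, since the keratins Krt1 and Krt10 had levels between 12.62 and 13.15 on all arrays. Sox10, a Schwann lineage gene, lay between 5.37 and 5.67, close to the proxy. In tissue of many cell types, more cells of one type and more RNA per cell cannot be told apart.

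Collagen genes were higher in the blastema in a part of the family, with members of 4 of the 8 classes, and no collagen gene was called lower. Of the 44 members 17 passed the test (limma, adjusted p under 0.05 over all genes) with a higher level, or 38.6%, where 4.98% of all genes did. None (0) passed with a lower level, where 4.66% of all genes did, and at an unadjusted p under 0.05 the counts were 23 higher and 0 lower, where 12.2% and 12.7% of all genes were. In 22 members all blastema arrays lay above all uninjured arrays, and in 1, Col4a6, all lay below. Over all genes these shares were 10.4% and 10.6%. The median log2 fold change, blastema minus uninjured, was 0.23 over the family and -0.01 over all genes. Among all genes ranked by fold change, 10 of the highest 100 and 4 of the highest 20 were collagens (Col1a1, Col1a2, Col12a1 and Col6a3).

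By class, 9 of 11 fibrillar genes rose (median log2 fold change 2.22), 3 of 6 beaded filament genes (median 1.08), 3 of 9 network genes (median 0.21) and 2 of 9 FACIT genes (median -0.01). None (0) of the 4 transmembrane genes passed, with a median of 0.09 and 1 gene at an unadjusted p under 0.05. The anchoring fibril gene, both multiplexins and the other 2 members did not pass either. The classes thus ranged from most of their members called to none. The exact counts are small, and no test compared one class with another. Whichever 1 of the 7 arrays was left out, 8 fibrillar genes passed. With the mean of probe sets the fibrillar median was 1.29. Scaling each array to 11 reference genes lowered the median of all genes to -0.24 and gave 694 higher and 4771 lower genes in place of 1105 and 1034. On that scale the FACIT, network and transmembrane medians were -0.24, -0.03 and -0.14, 15 collagen genes were higher, and Col14a1 and Col4a6 were lower (adjusted p = 0.0223 and 0.0342). The rises of the 12 genes of at least 2-fold kept their direction and call on it.

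**Figure D1:**
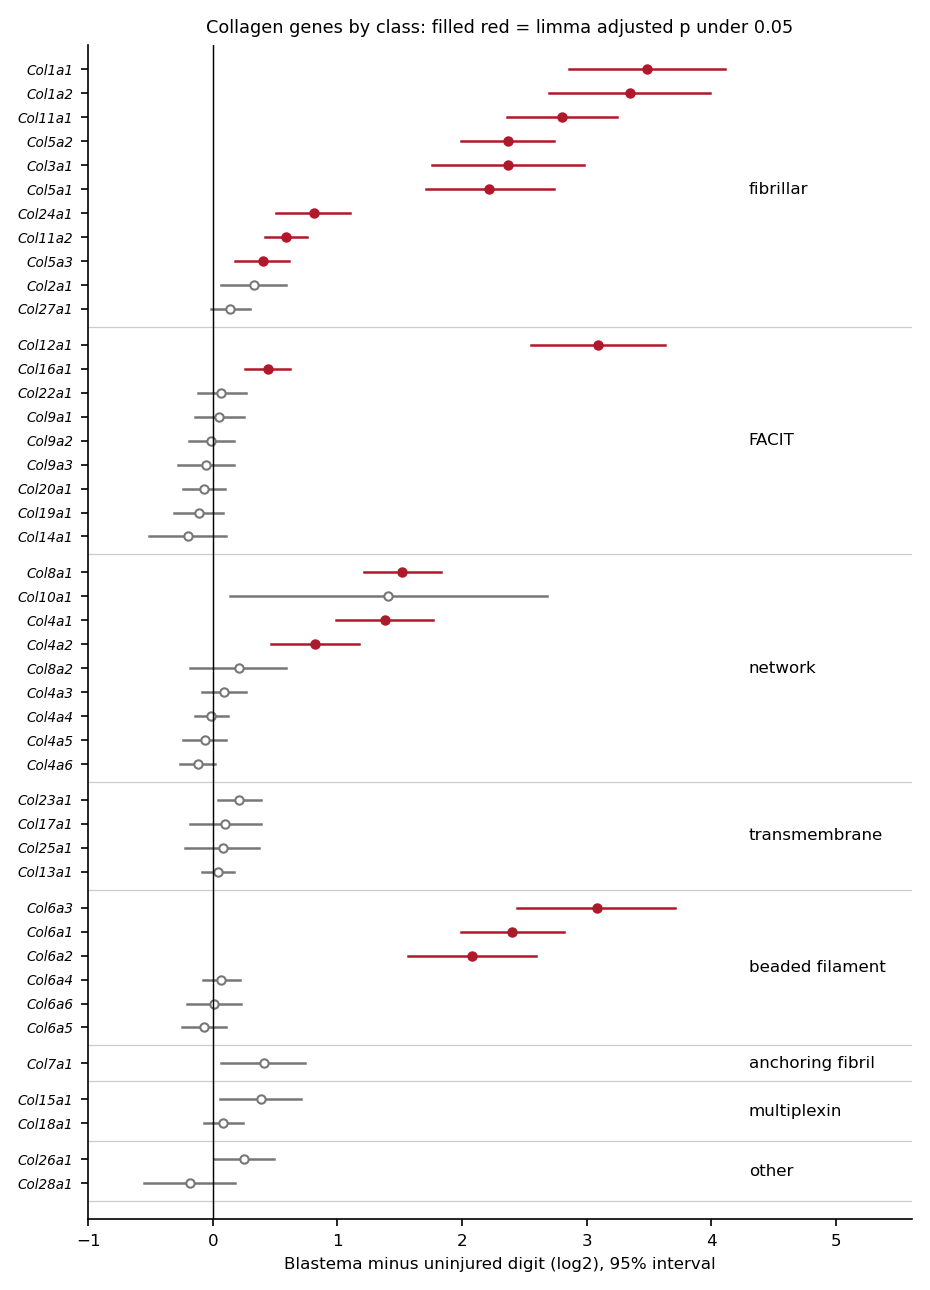
Log2 fold change of each of the 44 collagen genes, blastema minus uninjured digit, with its 95% interval from limma (n = 4 uninjured and 3 blastema arrays). Genes are grouped by class, and filled red points mark the 17 genes with an adjusted p under 0.05; they lie between 0.40 and 3.48, and 9 of them are fibrillar.

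Among fibrillar collagens, the chains of type I, the main collagen of bone, skin and tendon, showed the largest differences of the family. Col1a1, whose product is the more numerous chain of the type I trimer, had levels of 9.35, 9.50, 8.37 and 9.25 in uninjured digit and 12.35, 12.77 and 12.70 in blastema. Every blastema array lay at least 2.85 above the highest uninjured array, and uninjured array 3 was the lowest of all. The mean went from 9.12 ± 0.51 (SD, n = 4) to 12.60 ± 0.22 (SD, n = 3). That is 11.2-fold, with a log2 fold change of 3.48 ± 0.27 (SE, adjusted p = 0.0014). Its partner chain gene Col1a2 had levels of 8.79, 8.94, 7.78 and 8.72 in uninjured digit and 11.66, 12.08 and 11.98 in blastema. The order of the arrays was the same as for Col1a1, and the log2 fold change was 3.35 ± 0.28 (SE, adjusted p = 0.00173). Col3a1, the type III collagen gene of pliable tissues such as skin and vessels, had levels of 8.62, 9.0, 7.98 and 8.80 in uninjured digit and 10.58, 11.24 and 11.09 in blastema. It rose by 2.37 ± 0.26 (SE, adjusted p = 0.0035), with a gap of 1.58 between the groups.

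Type V collagen starts fibrils of type I and sets their width. Col5a1 had levels of 7.02, 7.11, 6.43 and 6.86 in uninjured digit and 8.62, 9.34 and 9.27 in blastema. Col5a2 had levels of 7.16, 7.23, 6.87 and 7.06 in uninjured digit and 9.09, 9.52 and 9.73 in blastema. In both genes the blastema arrays lay more than 1 above all uninjured arrays, and the log2 fold changes were 2.22 ± 0.22 (SE, adjusted p = 0.00263) and 2.37 ± 0.16 (SE, adjusted p = 0.00126). Col5a3, a further chain found in part of the type V trimers, had levels of 6.46, 6.54, 6.44 and 6.34 in uninjured digit and 6.77, 6.73 and 7.03 in blastema. The groups did not overlap, but the log2 fold change was only 0.40 ± 0.09 (SE, adjusted p = 0.0383). The call of Col5a3 was lost whichever of the 7 arrays was left out, with adjusted p of 0.0549 to 0.0968, and with either scaling to reference genes or to array medians (0.265 and 0.0513).

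Type XI collagen, with type II, builds cartilage fibrils, and type XI chains also occur outside cartilage. Col11a1 had levels of 6.19, 6.27, 5.72 and 6.05 in uninjured digit and 8.46, 9.06 and 9.05 in blastema. All blastema arrays were at least 2.19 above the uninjured arrays, and the log2 fold change was 2.80 ± 0.19 (SE, adjusted p = 0.00126). Col11a2 had levels of 5.90, 5.93, 5.83 and 5.79 in uninjured digit and 6.37, 6.57 and 6.42 in blastema. It rose less, by 0.59 ± 0.07 (SE, adjusted p = 0.0045). Col2a1, the main collagen of cartilage, had levels of 6.33, 6.23, 5.99 and 6.37 in uninjured digit and 6.41, 6.65 and 6.62 in blastema. The lowest blastema array lay 0.04 above the highest uninjured array, and the gene did not pass, with a difference of 0.33 (95% interval 0.07 to 0.59, adjusted p = 0.117). Of the remaining fibrillar genes, which encode types found in developing bone and cartilage, Col24a1 rose by 0.81 ± 0.13 (SE, adjusted p = 0.00977) and Col27a1 differed by 0.14 (95% interval -0.01 to 0.30, adjusted p = 0.243).

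FACIT genes went apart from each other. Col12a1, the collagen that coats type I fibrils in dense connective tissue and around bone, had levels of 8.53, 8.34, 7.78 and 8.44 in uninjured digit and 10.92, 11.54 and 11.63 in blastema. The groups stood 2.39 apart, and the log2 fold change was 3.09 ± 0.23 (SE, adjusted p = 0.00127), or 8.54-fold. Col16a1, a FACIT of skin and cartilage, had levels of 6.72, 6.62, 6.43 and 6.56 in uninjured digit and 7.03, 7.04 and 6.99 in blastema and rose by 0.44 ± 0.08 (SE, adjusted p = 0.0146). That smaller rise lost its call when blastema array 2 or 3 was omitted (adjusted p = 0.0626 and 0.0561) or with reference gene scaling (0.19). The other 7 FACIT genes differed by -0.20 to 0.07, their groups overlapped, and none had an adjusted p under 0.411.

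Type IX collagen decorates the type II fibrils of cartilage, and none of its chain genes was called. Col9a1 had levels of 4.98, 5.06, 5.13 and 5.06 in uninjured digit and 5.28, 5.01 and 5.04 in blastema, below the background proxy on all 7 arrays. Col9a2 had levels of 7.29, 7.20, 7.24 and 7.24 in uninjured digit and 7.39, 7.17 and 7.13 in blastema, and the difference was -0.01 (95% interval -0.19 to 0.17, adjusted p = 0.944). Col9a3 had levels of 5.58, 5.50, 5.78 and 5.41 in uninjured digit and 5.54, 5.55 and 5.45 in blastema, close to the proxy. These intervals leave room for differences down to -0.28 and up to 0.25. Col14a1, which sits on fibrils of mature skin and tendon, had levels of 5.65, 6.13, 5.74 and 5.83 in uninjured digit and 5.44, 5.74 and 5.74 in blastema. It had the lowest fold change of the family together with the smallest p of the uncalled FACIT genes, -0.20 (95% interval -0.51 to 0.11, adjusted p = 0.411), and Col12a1, also a coat of type I fibrils, had the highest of its class.

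Network collagens split by chain. Col4a1 and Col4a2 encode the chains of the common type IV trimer, found in nearly all basement membranes. Col4a1 had levels of 6.29, 6.36, 6.19 and 6.52 in uninjured digit and 7.31, 7.91 and 7.96 in blastema, and Col4a2 had levels of 6.27, 6.17, 5.86 and 6.14 in uninjured digit and 6.60, 7.09 and 7.08 in blastema. In both, the blastema arrays lay above all uninjured arrays, and blastema array 1 was the lowest of its group. The log2 fold changes were 1.38 ± 0.17 (SE, adjusted p = 0.00435) and 0.82 ± 0.15 (SE, adjusted p = 0.0171). The call of Col4a2 was lost when uninjured array 2 or 4, or blastema array 2 or 3, was omitted (adjusted p = 0.0512, 0.0505, 0.0746 and 0.0801). The type IV chains with a more restricted distribution, found in kidney, lung, eye and, for Col4a5 and Col4a6, skin, were not called. Col4a3 had levels of 5.64, 5.53, 5.43 and 5.45 in uninjured digit and 5.60, 5.51 and 5.69 in blastema, and Col4a4 5.37, 5.42, 5.51 and 5.42 in uninjured digit and 5.42, 5.42 and 5.42 in blastema, both near the background proxy. Col4a5 had levels of 7.02, 7.03, 7.02 and 7.02 in uninjured digit and 7.03, 7.04 and 6.79 in blastema, and Col4a6 6.81, 6.81, 6.81 and 6.93 in uninjured digit and 6.72, 6.73 and 6.71 in blastema. Both genes of this last pair were above the proxy, and their differences were -0.06 (95% interval -0.24 to 0.11, adjusted p = 0.648) and -0.12 (95% interval -0.26 to 0.02, adjusted p = 0.256). In Col4a6 all blastema arrays lay below the uninjured arrays, by 0.08.

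Type VIII collagen is a short-chain network former of vessel walls and of the cornea. Col8a1 had levels of 7.29, 7.08, 7.03 and 6.86 in uninjured digit and 8.40, 8.54 and 8.82 in blastema, with a gap of 1.11 between the groups and a log2 fold change of 1.52 ± 0.13 (SE, adjusted p = 0.00184). Col8a2 had levels of 6.11, 5.77, 5.46 and 5.49 in uninjured digit and 6.04, 5.88 and 5.81 in blastema, and the groups overlapped, with a difference of 0.21 (95% interval -0.18 to 0.59, adjusted p = 0.487). Col10a1, the network collagen of hypertrophic cartilage, had levels of 5.10, 6.86, 4.91 and 6.90 in uninjured digit and 7.37, 7.56 and 7.11 in blastema. Uninjured arrays 2 and 4 were close to the blastema and arrays 1 and 3 lay well below it. The difference was 1.41 (95% interval 0.14 to 2.68, adjusted p = 0.161), so the interval spans both a small and a large rise. Uninjured arrays 2 and 4 both lay above arrays 1 and 3 in 4 of 9 chondrocyte markers and 3 of 6 osteoblast markers. The same held for 7 of 44 collagen genes (15.9%) and 15.6% of all genes, a count made after the values were seen. Of the chondrocyte markers, Matn1 (4.88, 4.89, 4.73 and 4.92) and Hapln1 (5.40, 5.61, 4.42 and 5.43) met the order only narrowly. Acan (5.57, 6.25, 5.34 and 6.43) and Comp met it by wider margins. Comp, a cartilage matrix gene, had 5.87, 7.81, 6.15 and 7.79 and Ibsp, a bone matrix gene, 5.79, 7.28, 4.89 and 7.66 on the 4 uninjured arrays, while Sox9, a chondrocyte transcription factor gene, had 8.97, 8.46, 8.67 and 8.63 without that order. The part of the tissue composition of single digits in the Col10a1 result was not tested.

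Beaded filament collagen also split, between the chains of the common trimer and the later-described chains. Col6a1 had levels of 7.64, 7.74, 7.27 and 7.78 in uninjured digit and 9.64, 10.22 and 10.16 in blastema. Col6a2 had levels of 6.89, 7.21, 6.69 and 6.82 in uninjured digit and 8.48, 9.37 and 9.10 in blastema, and Col6a3 had levels of 6.77, 7.37, 6.39 and 7.0 in uninjured digit and 9.45, 10.17 and 10.25 in blastema. No uninjured array reached any blastema array in these genes, and the gaps were 1.87, 1.27 and 2.08. The log2 fold changes were 2.40 ± 0.18 (SE, adjusted p = 0.00126), 2.08 ± 0.22 (SE, adjusted p = 0.00304) and 3.08 ± 0.27 (SE, adjusted p = 0.00193). Col6a4, Col6a5 and Col6a6, which encode chains that can take the place of the Col6a3 product, differed by 0.07, -0.07 and 0.01. Of these Col6a4 had the smallest p (adjusted p = 0.55), with levels of 5.11, 5.11, 4.99 and 5.11 in uninjured digit and 5.23, 5.11 and 5.11 in blastema, and it and Col6a5 lay below the background proxy.

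Collagens of the epidermis and its attachment showed small differences. Col17a1, the transmembrane collagen of the hemidesmosomes that fix basal keratinocytes, had levels of 11.21, 10.75, 10.79 and 10.76 in uninjured digit and 11.03, 11.02 and 10.89 in blastema. These groups overlapped, with a difference of 0.10 (95% interval -0.18 to 0.39, adjusted p = 0.652). Of 5 basal keratinocyte markers 0 rose and 1 fell, where 4.98% and 4.66% of all genes did. The gene that fell was Krt15, a basal keratin gene, with a log2 fold change of -2.30 ± 0.48 (SE, adjusted p = 0.0265). That call held without uninjured array 1 and was lost when any other single array was omitted (adjusted p = 0.0588 to 0.105). The other 4, Krt14, Itga6, Itgb4 and Trp63, differed by -0.08 to 0.27 and were not called. Col23a1, another transmembrane collagen, had levels of 6.45, 6.62, 6.49 and 6.39 in uninjured digit and 6.65, 6.68 and 6.78 in blastema, and the difference was 0.21 (95% interval 0.04 to 0.39, adjusted p = 0.126). Col13a1 and Col25a1, the remaining transmembrane collagens, differed by 0.04 (95% interval -0.09 to 0.17, adjusted p = 0.667) and 0.08 (95% interval -0.22 to 0.37, adjusted p = 0.758). Col7a1, the anchoring fibril collagen, had levels of 7.85, 7.40, 7.47 and 7.32 in uninjured digit and 7.83, 8.12 and 7.79 in blastema. It differed by 0.41 (95% interval 0.07 to 0.74, adjusted p = 0.134), with uninjured array 1 above blastema arrays 1 and 3 and below array 2, and passed without that array (0.52, adjusted p = 0.0372).

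Col15a1, a multiplexin of the basement membrane zone of vessels and muscle, had levels of 6.03, 6.26, 5.82 and 6.28 in uninjured digit and 6.30, 6.48 and 6.66 in blastema, and the difference was 0.39 (95% interval 0.06 to 0.71, adjusted p = 0.138). Col18a1, the multiplexin whose end fragment is endostatin, differed by 0.08 (95% interval -0.07 to 0.24, adjusted p = 0.487). Col26a1 had levels of 6.13, 5.97, 5.92 and 6.04 in uninjured digit and 6.49, 6.17 and 6.15 in blastema, and the difference was 0.25 (95% interval 0.01 to 0.49, adjusted p = 0.176), and Col28a1 differed by -0.18 (95% interval -0.55 to 0.18, adjusted p = 0.518). Over the 27 uncalled members the differences ran from -0.20 to 1.41, and Col10a1 was the only one above 0.41.

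**Figure D2:**
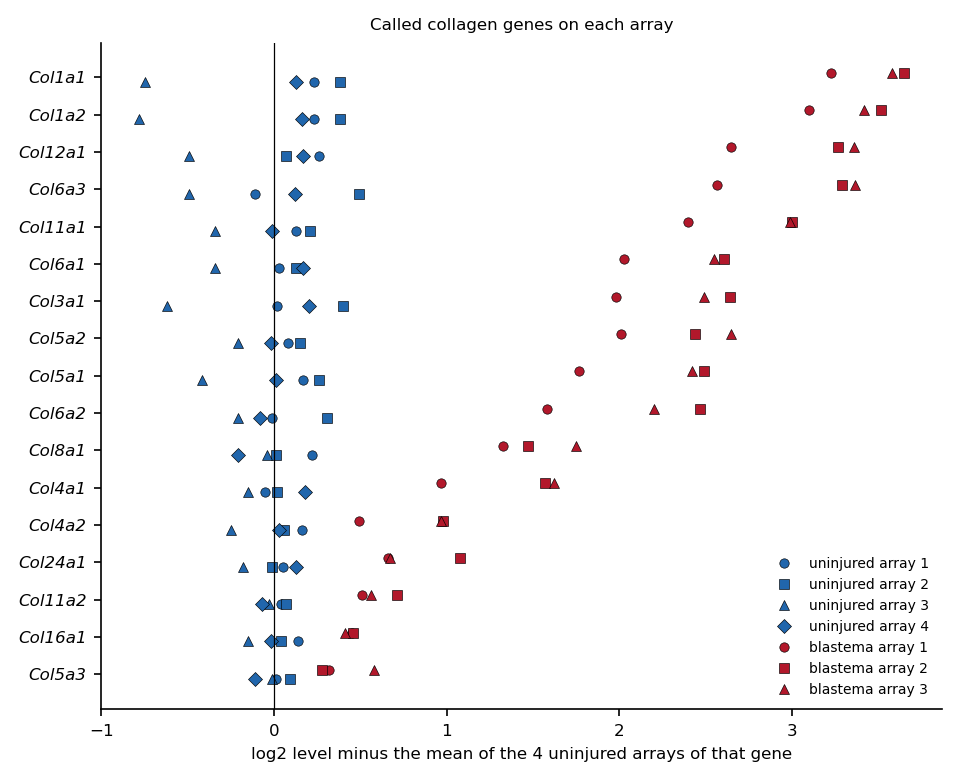
Log2 level of the 17 called collagen genes on each array, relative to the mean of the 4 uninjured arrays (blue) of the same gene; blastema arrays are red, and the marker shape gives the array number. Every blastema point lies to the right of the uninjured points of its gene, uninjured array 3 is the lowest uninjured array in 14 genes, and blastema array 1 is the lowest blastema array in 15.

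Most of the called genes had the same lowest array in each group. Uninjured array 3 was the lowest of its group in 14 of the 17 (82.4%), against 44.2% of all 1105 genes called higher. Blastema array 1 was the lowest of its group in 15 (88.2%), which is near the 75.4% of those genes and so not particular to collagens. The mean of the 17 genes was 7.16, 7.24, 6.74 and 7.11 on uninjured arrays 1 to 4 and 8.71, 9.17 and 9.16 on the blastema arrays. The mean of 7 fibroblast markers, none a collagen, was 8.48, 8.71, 7.67 and 8.42 and then 9.55, 10.01 and 10.16. That of 6 osteoblast markers was 5.63, 6.08, 5.18 and 6.09 and then 8.32, 8.82 and 8.67. In each of these lists uninjured array 3 and blastema array 1 were the lowest of their groups. The same held for the chondrocyte, tendon, macrophage, and pericyte and smooth muscle markers, so this order was not particular to fibroblast and osteoblast markers. For the endothelial, basal and suprabasal keratinocyte markers uninjured array 1 and blastema array 1 were lowest. For the Schwann cell and skeletal muscle markers neither uninjured array 3 nor blastema array 1 was lowest. The part of cell composition in the collagen differences was not tested.

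Beside 4.98% of all genes called higher and 4.66% called lower, 4 of 7 fibroblast markers rose and 6 of 6 osteoblast markers, the latter ranging from 0.69 for Bglap to 5.73 for Ibsp, a bone matrix protein gene. Chondrocyte markers rose in 4 of 9, with list means of 5.64 to 6.14 in uninjured digit and 6.52 to 6.75 in blastema. Their members Matn1 (0.05 (95% interval -0.17 to 0.26, adjusted p = 0.788)) and Cnmd (-0.09 (95% interval -0.26 to 0.09, adjusted p = 0.526)), both genes of cartilage cells, lay below the background proxy on all arrays, while Acan, the main cartilage proteoglycan gene, rose by 2.76 ± 0.34 (SE, adjusted p = 0.00481). Endothelial markers rose in 2 of 6, with list means of 6.26 to 6.89 and 7.03 to 7.72. Suprabasal keratinocyte markers were lower in 4 of 6, with list means of 10.76 to 11.01 and 9.72 to 10.15. Macrophage markers rose in 2 of 4, and pericyte and smooth muscle markers in 2 of 5. Of 3 measured Schwann cell markers 0 rose and 1 fell, Erbb3, with a log2 fold change of -0.59 ± 0.13 (SE, adjusted p = 0.0341). None (0) of 4 skeletal muscle markers passed, and none had an unadjusted p under 0.05 by limma. All 5 tendon markers were above the proxy in at least 1 group, and Fmod rose while Thbs4 fell.

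**Figure D3:**
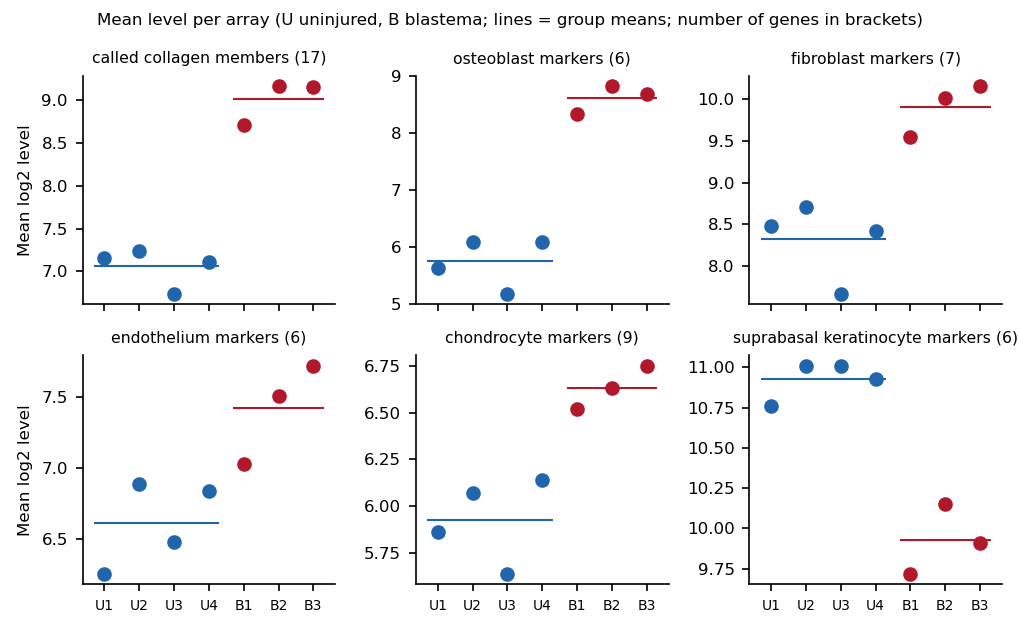
Mean log2 level on each array (U1 to U4 uninjured, B1 to B3 blastema; lines are group means) of the 17 called collagen genes and of 5 marker lists that hold no collagen. U3 is the lowest uninjured array for the collagen, osteoblast, fibroblast and chondrocyte panels, and suprabasal keratinocyte markers are the panel in which the blastema is lower.

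Collagen chains that share a trimer, or a fibril in the case of Col11a1 and Col2a1, were compared within each array. The log2 level of one chain minus that of the other was taken on each array. This gives the shift in a ratio of probe set signals and nothing of which chain was more abundant. Probe sets can respond unequally, as the second probe sets of Col1a2 and Col5a1 below show, so a shift in signal need not equal a shift in transcripts. Of 14 pairs 7 had groups that did not overlap. The share among pairs of other genes was not counted, so this number is not a result about chain partners. For single genes the shares were 10.4% (all blastema arrays above) and 10.6% (all below). Several genes, such as Col11a1, Col5a1 and Col6a1, enter more than 1 pair, so the pairs are not independent. With 4 against 3 arrays the exact two-sided permutation test as scipy computes it, by doubling the smaller tail, cannot go below p = 0.0571. These 7 pairs had that p (0.114 after Benjamini-Hochberg adjustment over the 14 pairs), so no pair could pass in this form of the test. The differences are therefore given as values. Col11a1 minus Col2a1 shifted by 2.47, Col11a1 minus Col11a2 by 2.21, Col5a1 minus Col5a3 by 1.83 and Col8a1 minus Col8a2 by 1.32. In each of these pairs 1 chain gene was up at least 2.87-fold and the other at most 1.51-fold. The genes with the smaller rise, Col8a2, Col11a2, Col2a1 and Col5a3, had uninjured means of 5.71, 5.86, 6.23 and 6.45. The background proxy was 5.52, and the part of probe response in these shifts was not tested. Col4a1 minus Col4a2 shifted by 0.56, from 0.03, 0.20, 0.33 and 0.38 in uninjured digit to 0.71, 0.82 and 0.87 in blastema. Col6a1 minus Col6a3 shifted by -0.67, from 0.87, 0.37, 0.88 and 0.77 to 0.19, 0.05 and -0.09.

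The type I chains moved almost in parallel. Their difference, Col1a1 minus Col1a2, was 0.56, 0.56, 0.59 and 0.53 in uninjured digit and 0.69, 0.69 and 0.71 in blastema, a shift of 0.14 beside rises of more than 3 in both genes. This small shift depends on the probe set: a second, dimmer probe set of Col1a2 rose by 2.00 ± 0.34 (SE, adjusted p = 0.0133 over all probe sets), and with the mean of both the shift was 0.81. Col5a1 minus Col5a2 shifted by -0.14 with overlapping groups. A second probe set of Col5a1, at levels of 5.71 to 6.31, differed by 0.36 ± 0.09 (SE, adjusted p = 0.0558), and with the mean of both the shift was -1.07, and that of Col5a1 minus Col5a3 was 0.90. For Col6a1 the second probe set rose by 2.66 ± 0.19 (SE, adjusted p = 0.00118), close to the brighter one. The remaining pairs, within type IX, the rarer type IV chains and Col6a1 with Col6a2, shifted by 0.05 to 0.32 and overlapped.

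**Figure D4:**
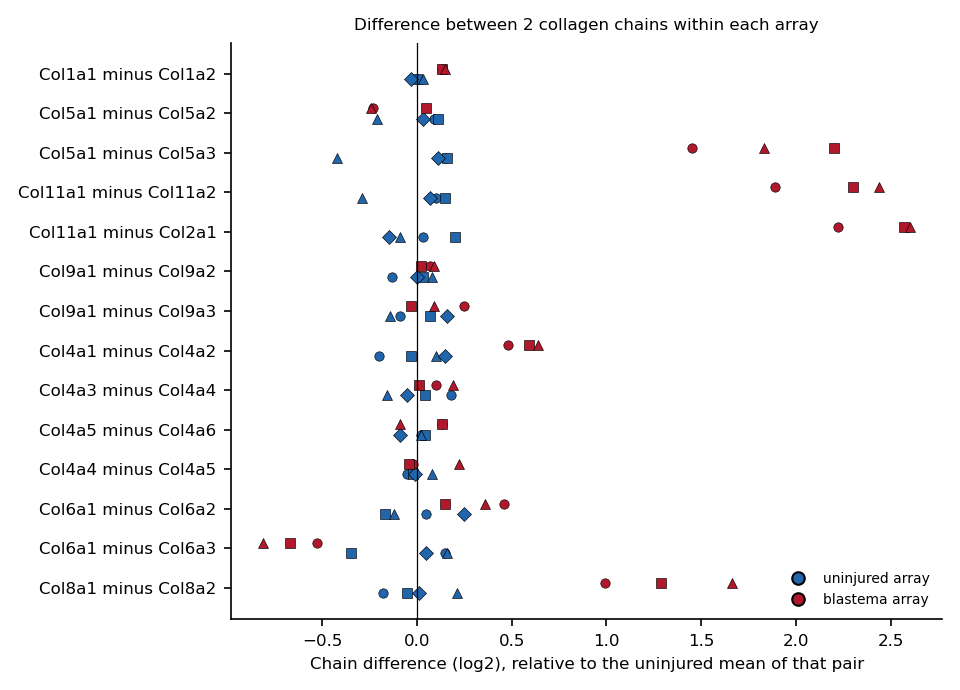
Log2 level of one collagen chain minus that of its partner on each array, relative to the uninjured mean of that pair (blue uninjured, red blastema; marker shapes give array numbers). The pairs of Col11a1, of Col5a1 with Col5a3 and of Col8a1 shift by 1.32 or more, the type I pair by 0.14, and the type IX pairs overlap.

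Promoter windows, from 250 bases before to 50 bases after the annotated start, were taken from RefSeq on build GRCm38.p6, and 35 of the 44 members, 14 of them called, had at least 1. Of the called genes Col1a1, Col5a2 and Col12a1 were not analysed here. The windows of the 5 called genes with the largest rises among those matched are shown. Those of Col4a1 and Col4a2 are added, because both rose and their windows overlap. Capitals mark a CCAAT box (CCAAT or its reverse complement ATTGG), a GC box (GGGCGG or CCGCCC) or a TATA box (TATAAA or TTTATA), and all are written 5′ to 3′ on the gene's strand.
Col1a2, chr6:4505368-4505667, plus strand: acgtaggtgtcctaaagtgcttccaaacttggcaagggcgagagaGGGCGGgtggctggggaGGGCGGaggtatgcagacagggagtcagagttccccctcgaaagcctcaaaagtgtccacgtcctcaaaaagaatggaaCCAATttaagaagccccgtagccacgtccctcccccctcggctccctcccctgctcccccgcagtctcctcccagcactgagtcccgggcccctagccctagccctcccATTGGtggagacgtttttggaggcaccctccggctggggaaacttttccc
Col6a3, chr1:90843922-90844221, minus strand: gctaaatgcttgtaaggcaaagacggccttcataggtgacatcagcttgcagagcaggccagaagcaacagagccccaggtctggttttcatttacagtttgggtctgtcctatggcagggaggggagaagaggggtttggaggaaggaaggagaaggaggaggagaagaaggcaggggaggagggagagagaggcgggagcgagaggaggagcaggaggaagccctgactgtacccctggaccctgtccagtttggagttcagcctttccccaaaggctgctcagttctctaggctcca
Col11a1, chr3:114030290-114030589, plus strand: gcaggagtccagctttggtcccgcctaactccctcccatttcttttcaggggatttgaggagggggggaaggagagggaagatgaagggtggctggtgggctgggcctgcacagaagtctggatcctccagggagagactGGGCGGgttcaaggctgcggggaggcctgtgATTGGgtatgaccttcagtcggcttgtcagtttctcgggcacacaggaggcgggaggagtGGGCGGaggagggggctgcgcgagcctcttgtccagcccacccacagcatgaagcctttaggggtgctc
Col6a1, chr10:76725995-76726294, minus strand: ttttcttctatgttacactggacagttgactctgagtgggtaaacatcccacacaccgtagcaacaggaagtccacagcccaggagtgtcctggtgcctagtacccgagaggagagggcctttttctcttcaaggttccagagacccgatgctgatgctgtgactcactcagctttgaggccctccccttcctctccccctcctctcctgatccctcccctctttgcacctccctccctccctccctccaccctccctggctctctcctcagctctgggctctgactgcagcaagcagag
Col3a1, chr1:45311288-45311587, plus strand: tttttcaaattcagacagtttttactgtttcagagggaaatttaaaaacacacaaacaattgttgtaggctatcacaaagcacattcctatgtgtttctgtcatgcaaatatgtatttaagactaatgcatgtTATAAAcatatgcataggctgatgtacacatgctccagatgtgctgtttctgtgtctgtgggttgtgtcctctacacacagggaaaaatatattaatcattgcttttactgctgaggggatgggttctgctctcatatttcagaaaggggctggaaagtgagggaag
Col4a1, chr8:11312777-11313076, minus strand: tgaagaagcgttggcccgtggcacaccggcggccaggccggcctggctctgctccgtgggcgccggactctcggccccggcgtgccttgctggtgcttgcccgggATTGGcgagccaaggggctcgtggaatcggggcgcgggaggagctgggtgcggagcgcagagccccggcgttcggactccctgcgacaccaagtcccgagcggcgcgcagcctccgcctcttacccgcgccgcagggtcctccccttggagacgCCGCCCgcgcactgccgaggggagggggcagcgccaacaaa
Col4a2, chr8:11312555-11312854, plus strand: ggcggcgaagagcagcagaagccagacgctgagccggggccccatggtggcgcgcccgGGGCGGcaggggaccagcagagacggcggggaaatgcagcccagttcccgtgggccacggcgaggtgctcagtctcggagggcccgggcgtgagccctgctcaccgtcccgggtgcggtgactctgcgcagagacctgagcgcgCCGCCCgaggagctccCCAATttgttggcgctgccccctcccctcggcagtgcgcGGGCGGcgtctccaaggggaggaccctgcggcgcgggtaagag

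With the annotated start as position 0, Col1a2 held CCAAT boxes at -109 and at 0 on the reverse strand, and GC boxes at -205 and -188. Col11a1 held a reverse CCAAT box at -79 and GC boxes at -110 and -19. The Col3a1 window held a TATA box at -117 and neither of the other motifs, and those of Col6a1 and Col6a3 held none of these letters. The genes with the largest rises thus did not share one of these motifs in this window. Col4a1 and Col4a2 lie head to head on chromosome 8 with starts 21 bases apart, and their windows share 78 bases. The GC box just after each start is one and the same stretch read from both strands. Col4a1, on the minus strand, starts at 11312826 and Col4a2, on the plus strand, at 11312805. The annotated genes thus overlap at their starts, and the bases before each start lie within the other gene. A CCAAT box was present in 6 of the 14 called and 7 of the 21 uncalled genes, and in 37.4% of all 32851 windows. For the GC box the counts were 10 of 14 and 12 of 21, with 35.7% of all windows, and for the TATA box 2 of 14 and 3 of 21, with 13.6%. The collagen counts are of genes, 35 genes with 38 windows, while the shares are of windows, so the units differ. A share per gene over the genome was not counted. No match overlapped another in the windows shown, and a match is a description of letters, not of a factor bound there.

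Genes that modify, fold, cut and cross-link collagen were also higher in part. Of 19 measured genes of hydroxylation and folding 9 rose and 0 fell (median 0.54), against 4.98% and 4.66% of all genes, with 13 higher and 1 lower at an unadjusted p under 0.05 (12.2% and 12.7% of all genes). P4ha3, a catalytic subunit of collagen prolyl 4-hydroxylase, which makes the helix stable, had levels of 5.89, 5.61, 5.51 and 5.50 in uninjured digit and 8.61, 9.31 and 9.96 in blastema and rose by 3.66 ± 0.29 (SE, adjusted p = 0.00147). Crtap and P3h1, partners in the prolyl 3-hydroxylase complex, rose by 2.04 ± 0.17 (SE, adjusted p = 0.00173) and 1.96 ± 0.18 (SE, adjusted p = 0.00214). Members not called included P4hb (0.31 (95% interval 0.11 to 0.51, adjusted p = 0.0688)), the partner subunit of the P4ha enzymes, and Ppib (-0.06 (95% interval -0.25 to 0.13, adjusted p = 0.701)), another protein of the Crtap complex, both chosen after their values were seen.

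Of 13 measured genes of procollagen processing and cross-linking 6 rose and 0 fell (median 0.37), against 4.98% and 4.66% of all genes, with 9 higher and 0 lower at an unadjusted p under 0.05 (12.2% and 12.7% of all genes). Lox, the lysyl oxidase that starts cross-links between chains, had levels of 6.08, 6.30, 5.82 and 6.46 in uninjured digit and 9.13, 10.08 and 10.10 in blastema, no overlap between groups, and a log2 fold change of 3.60 ± 0.26 (SE, adjusted p = 0.00126). Pcolce, which speeds the removal of the C-propeptide, rose by 1.65 ± 0.19 (SE, adjusted p = 0.00395), and the lysyl oxidase relative Loxl3 by 1.52 ± 0.27 (SE, adjusted p = 0.0162). Omitting uninjured array 4 or blastema array 2 or 3 ended the call of Loxl3 (adjusted p = 0.0501, 0.0729 and 0.0588).

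Among 12 measured collagen receptors 6 rose and 0 fell (median 0.66), against the same 4.98% and 4.66% of all genes, with 7 higher and 0 lower at an unadjusted p under 0.05 (12.2% and 12.7%). Itga11, the integrin subunit of fibroblasts that binds fibrillar collagen, had levels of 6.52, 5.94, 5.68 and 5.74 in uninjured digit and 8.16, 8.47 and 8.66 in blastema and rose by 2.46 ± 0.22 (SE, adjusted p = 0.00194). Ddr2, a receptor kinase for fibrillar collagen in mesenchymal cells, rose by 1.30 ± 0.24 (SE, adjusted p = 0.0179), and Oscar, a collagen receptor of osteoclasts, by 1.25 ± 0.17 (SE, adjusted p = 0.00655). The call of Ddr2 was lost when uninjured array 3 or 4, or blastema array 2 or 3, was omitted (adjusted p = 0.0515, 0.0501, 0.079 and 0.0828). With the replicate number as a block in the limma fit, the calls of Ddr2 and Oscar were both lost (adjusted p = 0.062 and 0.0539). Oscar had an uninjured mean of 5.27, below the background proxy. Ddr1, the receptor kinase of epithelia, was named after its value was seen and differed by 0.14 (95% interval -0.13 to 0.40, adjusted p = 0.503).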

How the data were processed

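Per the labels' protocols, cDNA from 400 ng of total RNA per sample was labelled with biotin for 1-colour arrays. Per the submitters' processing notes, oligo and RMA gave the deposited log2 values, RMA being a method of background correction, normalization across arrays and summary per probe set. No version or setting was given in the sources used here. The table held 41345 probe sets and 0 columns of other samples. The platform annotation gave 1 symbol for 23521, several for 1814 (1 of them with a collagen, left out) and none for 16010.

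Blastema was tested against uninjured digit with limma 3.58.1 (R 4.3.3; lmFit, eBayes, no covariate, no filter) over all 22180 genes, with two-sided p-values adjusted by Benjamini-Hochberg and a threshold of 0.05. All adjusted p-values come from this fit or its stated alternatives. On simulated data with 200 changed genes it recovered 34% at a log2 change of 0.5, 86% at 1, 96% at 2 and 100% at 3, with 11 false calls. The simulation drew independent noise with 1 SD per gene, and far fewer genes were changed than the 2139 called here. These figures therefore check the code and do not give the power or error of the fit on these data. Chain pairs were tested with scipy 1.17.1. The collagen members, classes and gene lists were chosen with earlier results of these data known. Classes are textbook assignments. Per-array levels are given, within a class, for called genes with the 4 largest changes, genes in chain pairs and the uncalled gene with the smallest p, and Col17a1 was added later. Of each other gene list the 3 called genes with the largest changes are named. Plod3, Fkbp10, Adamts2, Loxl2 and Itga10 of those lists, and the markers Runx2, Bglap2, Spp1, Fbn1 and Krt5, were not analysed here. Alternatives were a replicate block, filters on level, the mean of probe sets, other variance models, array weights, other scalings, a fit of every probe set and leaving out each array. Leaving out both arrays numbered 1 was chosen after the data were seen.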

Additional observations from a re-analysis of the deposited data

Results flagged for a closer look

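Among 65 genes examined (the 44 collagens and the 21 called genes of the other lists), 5 had an uninjured array that stood apart from the other uninjured arrays by more than Dixon's 95% critical value, and chance alone gives about 1 in 20. Col17a1 was at 11.21 on uninjured array 1 and at 10.75 to 10.79 on the others. Col4a5 was at 7.03 on uninjured array 2, with 7.02 on the others, and Col4a6 at 6.93 on uninjured array 4, with 6.81 on the others. Col6a4 was at 4.99 on uninjured array 3, with 5.11 on the others, and Col19a1 at 5.17 on uninjured array 4, with 5.05 on the others. In the last 4 genes the other uninjured arrays held one and the same value to 2 decimals, so a small departure met the criterion.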

How the results depend on the processing

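The 17 rises kept their direction in all 289 values under the alternatives run and their call in 268, with 21 losses, all in Col5a3, Col4a2, Col16a1 and Col24a1. Over the 7 omissions of 1 array, 14 to 17 collagen genes were higher and 0 lower, while 845 to 2295 of all genes were called, against 2139 with all arrays. The genes called higher numbered 8 in every omission for the fibrillar class, 2 to 3 for the network class, 1 to 2 for FACIT and 0 to 1 for the anchoring fibril gene. The class medians then ran from 2.08 to 2.45 (fibrillar), -0.07 to 0.04 (FACIT) and 0.12 to 0.34 (network). With the replicate number as a block, 599 genes were called, with 13 collagens higher, 1 of them a FACIT gene, and 5 genes of hydroxylation and folding and 3 receptors. Same-numbered arrays deviated together at r = 0.29, 0.15 and -0.07. Blastema arrays 1 and 2 correlated best with the uninjured array of their own number, and blastema array 3 with uninjured array 4. The labels state no pairing, and whether same-numbered arrays share an origin was not tested. Reference gene scaling called 5465 genes, with 2 collagens and 1 folding gene, P3h4, lower and 1 FACIT gene higher. Its class medians were 1.99 (fibrillar), -0.24 (FACIT), -0.03 (network), -0.14 (transmembrane), 0.84 (beaded filament), 0.17 (anchoring fibril), 0.00 (multiplexin) and -0.20 (others). The mean of all probe sets gave a fibrillar median of 1.29 and chain shifts of 0.81 (Col1a1 minus Col1a2), -1.07 (Col5a1 minus Col5a2) and 0.90 (Col5a1 minus Col5a3). The level filter left fewer genes, with a beaded filament median of 2.08, and so did the background proxy, with medians of 2.24 (beaded filament), 0.51 (network) and 0.25 (others). Array weights called the anchoring fibril gene (1 of 1). Without both arrays numbered 1 the fibrillar median was 2.50 and the FACIT median -0.06. The causes were not tested. Low signal limits the 6 genes under the background proxy in both groups, where a difference could go unseen.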

Other observations

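Several collagen genes are neighbours on a chromosome, with no other protein-coding gene between their starts in the RefSeq table. Neighbours had the same call in 8 of 8 pairs, where 17 of all 44 members were called. The agreement of neighbouring genes elsewhere in the genome was not counted. In 3 pairs both were higher: Col3a1 and Col5a2 on chromosome 1 (2.37 and 2.37 on the log2 scale), Col6a1 and Col6a2 on chromosome 10 (2.40 and 2.08) and Col4a1 and Col4a2 on chromosome 8 (1.38 and 0.82). In 5 pairs neither was called: Col9a1 with Col19a1, Col4a3 with Col4a4, Col4a5 with Col4a6, Col6a5 with Col6a6 and Col6a4 with Col6a5. Of these genes Col9a1, Col19a1, Col4a4, Col6a4 and Col6a5 lay below the background proxy in both groups, where a call was unlikely. Col6a5 enters with each of its neighbours, so its pairs are not independent. Several of these neighbours are also chains of one trimer, so position and partnership cannot be told apart. The exception among the called pairs, Col3a1 and Col5a2, encode chains of different collagens.

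Of the 44 collagen genes 16 had the same value on at least 2 arrays to 6 decimals, as had 52.9% of all genes, and 0 of these 16 were among the called genes. Col4a4, for instance, had 3 distinct values on 7 arrays.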
